A study of Mus musculus with 32 samples.

Results

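The genes that encode laminin subunits were examined in whole mesothelioma tumors of mice. The named members were Lama1 to Lama5, Lamb1 to Lamb3 and Lamc1, which are 9 genes, and the gene count table holds a row for 8 of them. Lama1 is not analysed here. The rule takes the members by gene symbol from 39676 genes.

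The samples were 32 tumors, each from 1 mouse, in 4 groups of 8. AB1, a mesothelioma line of BALB/c mice, was inoculated at 500000 cells, and AE17, a mesothelioma line of C57BL/6 mice, at 1000000 cells. Each line was placed in the pleural cavity (intrapleural, IPL) or under the skin of the flank (subcutaneous, SC) of untreated female mice aged 8 to 10 weeks, and tumors were taken on day 10. The comparison of IPL with SC tumors in each model addresses how gene expression differs between growth in the pleural space, where these tumors invade, and growth under the skin. Cell line, mouse strain and cell number change together between AB1 and AE17, so their parts in a difference cannot be told apart.

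Polyadenylated RNA was read as 50-base single-end reads, and the counts assigned to genes summed to between 15432258 and 20649645 per tumor. Levels are given as counts per 1000000 (CPM) scaled between libraries, and 3 counts, taken as the least that can be told from 0, correspond to 0.145 to 0.194 CPM. The library names carry a sequencing lane that overlaps with the groups. All 8 AB1 IPL tumors and 2 of the AB1 SC tumors were read in lane 3, the other 6 AB1 SC tumors and 5 AE17 IPL tumors in lane 2, and the other 3 AE17 IPL tumors and all 8 AE17 SC tumors in lane 1. The 8 mesothelial markers with a row summed to medians of 92.6 and 87.9 CPM in AB1 IPL and SC and 187 and 163 CPM in AE17 IPL and SC tumors, most of it Pdpn, podoplanin, at means of 86.5 to 169 CPM over the groups. In AB1 tumors they did not all move together. Upk3b, a mesothelial uroplakin, reached at most 0.0581 CPM in AB1 SC and 0.0594 CPM in AE17 SC tumors, against up to 6.50 CPM in AE17 IPL tumors (median 1.85). In AB1 IPL tumors it stood at 31.8 CPM in tumor 2 and at most 0.468 CPM in the other 7. Calb2, calretinin, had a mean of 0.794 CPM in AB1 SC against 0.339 CPM in AB1 IPL tumors. In AE17 tumors each of the 8 but Calb2, which lay under the floor, had a higher mean in IPL than in SC tumors. By edgeR 0 of 2 tested had an adjusted p under 0.05 there and by DESeq2 5 had, where 5.73% and 6.21% of all genes did. No mesothelial score was fitted, so the part of these markers in the laminin values was not tested. The summed level of 10 skeletal muscle markers ran from 121 to 5334 CPM in AB1 IPL tumors, 55.1 to 551 CPM in AB1 SC tumors, 57.4 to 921 CPM in AE17 IPL tumors and 46.2 to 1474 CPM in AE17 SC tumors. In whole tumors, fewer cells of a type and less RNA per cell cannot be told apart.

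Laminins are heterotrimers of an alpha, a beta and a gamma chain that assemble into the network of the basement membrane, the sheet of matrix under epithelia and endothelia and around muscle, fat and Schwann cells. The alpha chain carries the domains that bind integrins and dystroglycan on the cell surface, so it sets much of what a trimer binds. Lama2 encodes the alpha chain of muscle and Schwann cell laminin, Lama4 that of vessels and fat, Lama5 that of many adult epithelia and vessels, and Lama3 that of the epidermal trimer, which also holds the product of Lamb3. Lamb1 and Lamc1 encode the most widely expressed beta and gamma chains, and Lamb2 encodes the beta chain known from the kidney filter and the neuromuscular junction.

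In the GRCm38 build, Lama2 lies at chr10:26980036-27619758, Lama4 at chr10:38965515-39110188, Lama5 at chr2:180176373-180225859, Lamb1 at chr12:31265234-31329644, Lamb2 at chr9:108479736-108490530 and Lamc1 at chr1:153218922-153332786. An antisense gene, Gm48084, overlaps 3.86% of the exon bases of Lama2, and whether the counting used the strand is not stated, so reads there cannot be assigned with certainty. The stretches just before the first annotated exon of 3 members are shown because Lama5 did not overlap between the models at either site and Lamb1 and Lamb2 were called between the sites in AB1 tumors. Lama4, Lama2 and Lamc1 meet 1 of these conditions too and are not shown, so the 3 are no full set. They are RefSeq sequence on GRCm38.p6, written 5′ to 3′ on the strand of the gene, with every GC box (GGGCGG, or CCGCCC where it lies on the other strand) in capitals.
Lama5, chr2:180225860-180226109, minus strand: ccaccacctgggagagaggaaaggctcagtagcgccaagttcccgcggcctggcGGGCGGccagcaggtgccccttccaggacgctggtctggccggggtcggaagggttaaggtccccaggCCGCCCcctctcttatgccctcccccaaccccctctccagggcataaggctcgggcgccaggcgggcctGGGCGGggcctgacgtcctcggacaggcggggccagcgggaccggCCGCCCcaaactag
Lamb1, chr12:31265043-31265233, plus strand: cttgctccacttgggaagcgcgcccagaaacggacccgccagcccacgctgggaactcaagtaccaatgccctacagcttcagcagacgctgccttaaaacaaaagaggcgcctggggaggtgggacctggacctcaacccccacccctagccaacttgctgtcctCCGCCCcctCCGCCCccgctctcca
Lamb2, chr9:108479612-108479735, plus strand: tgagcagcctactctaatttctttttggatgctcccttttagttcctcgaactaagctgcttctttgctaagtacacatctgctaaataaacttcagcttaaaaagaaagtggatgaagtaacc
The Lama5 stretch holds 4 GC boxes in 250 bases, the Lamb1 stretch 2 in 191 bases and the Lamb2 stretch 0 in 124 bases. A GC box was present in 35.7% of 32851 RefSeq promoter windows of 250 bases before and 50 after the start, which are longer than these stretches. G and C made up 72.7% of the window of Lama5, 63.7% of that of Lamb1 and 44% of that of Lamb2, against a median of 52.7% over all windows. The match is of letters only and is no evidence of a bound factor.

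Per kilobase of annotated exon, the gamma and beta chains Lamc1 and Lamb1 stood at the top in all 4 groups, at means of 53.4 to 71.4 and 37.5 to 51.3 CPM per kb. In AB1 tumors they were followed by Lamb2, at 25.97 ± 3.36 CPM per kb in IPL tumors (SD, n = 8), and, far below it, by Lama5 at 3.85 ± 0.810 and Lama4 at 2.83 ± 0.767 CPM per kb. In AE17 IPL tumors Lama5 was next after Lamb1, at 40.6 ± 7.66 CPM per kb (SD, n = 8), and Lamb2 followed at 20.1 ± 1.53 CPM per kb. In AE17 SC tumors Lama5 (21.3 ± 11.4 CPM per kb) and Lamb2 (19.7 ± 3.89 CPM per kb) lay within each other's spread. Lama2, Lama3 and Lamb3 were below 1 CPM per kb on average in every group. Lama3 and Lamb3 in AE17 tumors also lay within each other's spread, at 0.278 and 0.284 CPM per kb in IPL and 0.217 and 0.206 CPM per kb in SC tumors. These levels depend on the length used and would shift unevenly with coding length. Exon and coding lengths are 16.3 and 9.35 kb for Lama2, 10.7 and 9.99 kb for Lama3, and 6.61 and 3.50 kb for Lamb3.

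The summed per-length level of the alpha chains was 7.78 ± 1.29 CPM per kb in AB1 IPL and 6.70 ± 0.607 CPM per kb in AB1 SC tumors (SD, n = 8). It was 47.7 ± 7.04 CPM per kb in AE17 IPL and 28.4 ± 11.5 CPM per kb in AE17 SC tumors. The single gamma chain among the members, Lamc1, differed far less between the models, at 71.4 ± 6.36, 54.3 ± 4.31, 58.1 ± 4.27 and 53.4 ± 4.64 CPM per kb in the same order of groups. Lama5 made up 84.5% ± 4.88 of the alpha sum in AE17 IPL tumors, 70.7% ± 12.97 in AE17 SC, 49.6% ± 7.30 in AB1 IPL and 57.2% ± 4.06 in AB1 SC tumors. Lama4 made up 13.95% ± 4.48, 25.03% ± 11.4, 36.1% ± 5.45 and 34.7% ± 3.31 in that order. Lama2 held 11.5% ± 5.51 of the alpha sum in AB1 IPL tumors and 5.41% ± 1.28 in AB1 SC tumors, against 0.922% ± 0.519 in AE17 IPL and 3.45% ± 1.61 in AE17 SC tumors. Among the beta chains, Lamb1 held 65.9% to 71.6% of the sum and Lamb2 28.04% to 34.03% as group means, while Lamb3 held at most 0.401%. These shares depend on the length each level is divided by. With coding length in place of exon length, Lama4 instead of Lama5 was the leading alpha chain in AB1 tumors, at 51.9% and 52.0% in IPL and SC tumors against 33.2% and 39.6% for Lama5, while Lama5 still led in AE17 tumors, at 72.6% and 55.0%.

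**Figure D1:**
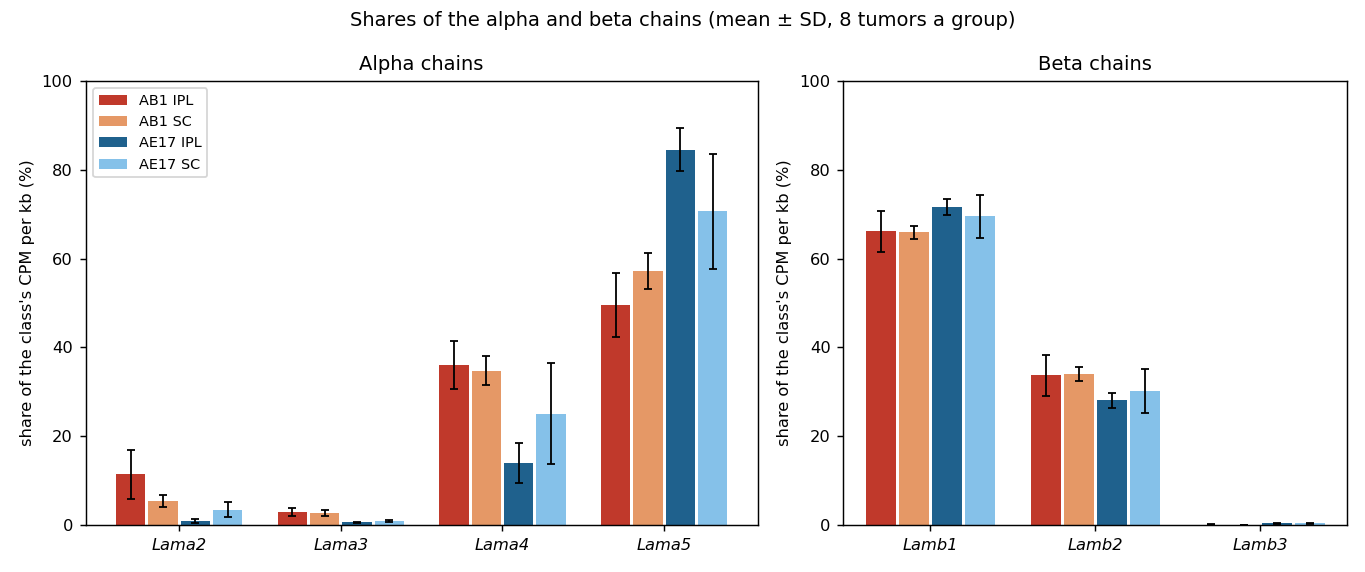
Share of each chain in the summed CPM per kb of the alpha members (left) and the beta members (right), in percent. Bars are means and lines SDs over 8 tumors a group, and Lama5 holds 84.5% of the alpha sum in AE17 IPL tumors against 49.6% in AB1 IPL tumors.

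The AB1 comparison asked which laminin genes differ between pleural and subcutaneous tumors of that line. Of 7 members that passed the filter on low counts, 4 were called higher in IPL tumors (adjusted p under 0.05) and none was called lower. The 4 were Lama2, Lamb1, Lamb2 and Lamc1. Over all 14645 genes tested, 23% passed, and the median log2 fold change was 0.37 over the 7 members against -0.002 over all genes. The groups did not overlap for Lamb2 and Lamc1, 2 of the 7, which was so for 5% of all genes.

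Lamc1, the gamma chain of most trimers, stood at 545 to 712 CPM in AB1 IPL tumors (median 578) and at 391 to 505 CPM in AB1 SC tumors (median 446). Every IPL tumor was above every SC tumor. The log2 fold change was 0.37 ± 0.06 (SE; adjusted p = 0.00063, edgeR). Lamb2 stood at 133 to 196 CPM (median 162) in IPL and 108 to 125 CPM (median 119) in SC tumors. Here, too, all IPL tumors lay above all SC tumors, with a log2 fold change of 0.40 ± 0.07 (adjusted p = 0.000912). Lamb1 stood at 401 to 609 CPM (median 497) in IPL and 336 to 411 CPM (median 373) in SC tumors, so that 7 of 8 IPL tumors exceeded every SC tumor. Its log2 fold change was 0.42 ± 0.08 (adjusted p = 0.000718).

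Lama2, the muscle and nerve alpha chain, had the largest change, with 6.45 to 23.7 CPM (median 14.5) in IPL and 3.81 to 8.18 CPM (median 5.89) in SC tumors. The IPL tumors spread widely, and 6 of 8 exceeded every SC tumor. The log2 fold change was 1.26 ± 0.26, or 2.40-fold (adjusted p = 0.00185). The epidermal chain Lama3 (log2 fold change 0.26 ± 0.18, adjusted p = 0.313), the vessel chain Lama4 (0.26 ± 0.13, adjusted p = 0.177) and Lama5 (-0.03 ± 0.12, adjusted p = 0.885) did not pass, and Lama5 spanned 28.7 to 61.4 CPM in IPL and 34.9 to 55.3 CPM in SC tumors. Lamb3 was at 1 to 19 counts in IPL and 0 to 7 counts in SC tumors and did not pass the filter.

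Markers of other tissues moved with this comparison. Of the skeletal muscle markers, 9 of 10 were higher in AB1 IPL tumors, where 23% of all genes passed, among them Actn3 (log2 fold change 4.76), Ckm (4.26) and Atp2a1 (3.94). Of 6 fibroblast markers tested 4 were higher, with a summed level of 11740 to 30480 CPM in IPL and 9878 to 12840 CPM in SC tumors. When scores of skeletal muscle, cardiac muscle, adipocyte and lung epithelium markers were added to the fit, the log2 fold change was 0.31 for Lama2 (adjusted p = 0.584) and 0.18 for Lamb2 (adjusted p = 0.276), while Lamb1 (0.51) and Lamc1 (0.36) still passed. With lane in the fit none of the members passed, at log2 fold changes of 1.10 for Lama2, 0.36 for Lamb1, 0.36 for Lamb2 and 0.26 for Lamc1 (edgeR, adjusted p from 0.134 to 0.213), and 4 members had an unadjusted p under 0.05. Over all genes 2.64% passed with lane and 5.38% with the marker scores. Within lane 3, 8 IPL against 2 SC tumors, they were 1.05, 0.32, 0.32 and 0.22, and none passed by edgeR, 1 member having an unadjusted p under 0.05.

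**Figure D2:**
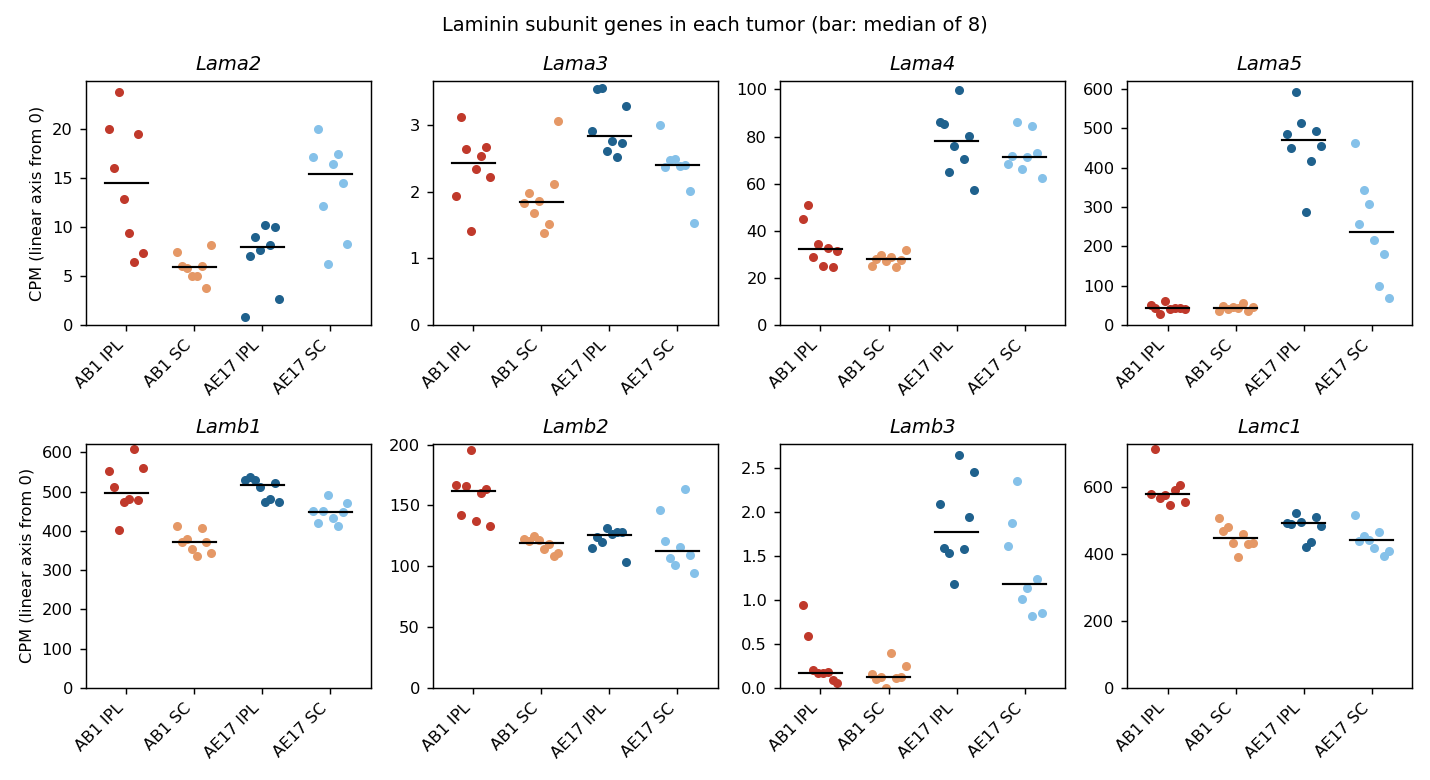
CPM of the 8 members in every tumor, on linear axes that start at 0, with points for single tumors and a bar at the median of each group of 8. Lama5 lies between 28.7 and 61.4 CPM in all AB1 tumors and between 69.4 and 592 CPM in AE17 tumors.

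In AE17 tumors 1 of 8 tested members, Lamb1, passed between the sites, where 5.73% of 14668 genes did. Lamb1 stood at 474 to 536 CPM (median 517) in IPL and 411 to 492 CPM (median 449) in SC tumors. The groups overlapped, with 5 of 8 IPL tumors above every SC tumor, and the log2 fold change was 0.19 ± 0.05, or 1.14-fold (adjusted p = 0.0285). No member had groups without overlap, which was so for 0.573% of all genes. The Lamb1 call was lost when any of AE17 IPL tumors 2, 4 and 7 or AE17 SC tumors 2, 5, 6 and 7 was left out, with adjusted p up to 0.0642, with no filter on low counts (adjusted p = 0.0708), with the replicate number as a block (adjusted p = 0.0613), with lane in the fit (log2 fold change 0.15, adjusted p = 0.276), and with the tissue marker scores (0.14, adjusted p = 0.424). Of 14668 genes, 1 passed with lane and 2 with the scores.

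Lama5 and Lama2 had the largest estimates in AE17 tumors, in opposite directions, and neither passed. Lama5 stood at 288 to 592 CPM (median 470) in IPL and at 69.4 to 462 CPM (median 237) in SC tumors. All 8 IPL tumors were above the SC median, and 4 were above every SC tumor. The log2 fold change was 0.94 ± 0.30 (adjusted p = 0.0721). It passed by DESeq2 (adjusted p = 0.019), in the fit over all 32 mice (adjusted p = 0.0128) and when AE17 SC tumor 1 or 3 was left out, and its adjusted p ran up to 0.484 over the other settings. Lama2 stood at 0.872 to 10.2 CPM (median 7.92) in IPL and 6.23 to 20.0 CPM (median 15.4) in SC tumors. None of the IPL tumors exceeded the SC median, and the log2 fold change was -1.01 ± 0.36 (adjusted p = 0.101, 0.0482 by DESeq2 and 0.0488 in the fit over all 32 mice). With the tissue marker scores in the fit the Lama2 estimate was -1.51 ± 0.40 (adjusted p = 0.215), where 2 of 14668 genes passed. Of the skeletal muscle markers 0 of 10 passed in AE17 tumors by edgeR, 0 had an unadjusted p under 0.05 and 0 passed by DESeq2, and their median log2 fold change was -0.67. The other estimates were 0.47 ± 0.23 for Lamb3, 0.36 ± 0.14 for Lama3, 0.13 ± 0.06 for Lamc1, 0.10 ± 0.10 for Lama4 and 0.04 ± 0.10 for Lamb2, with adjusted p from 0.108 to 0.859.

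**Figure D3:**
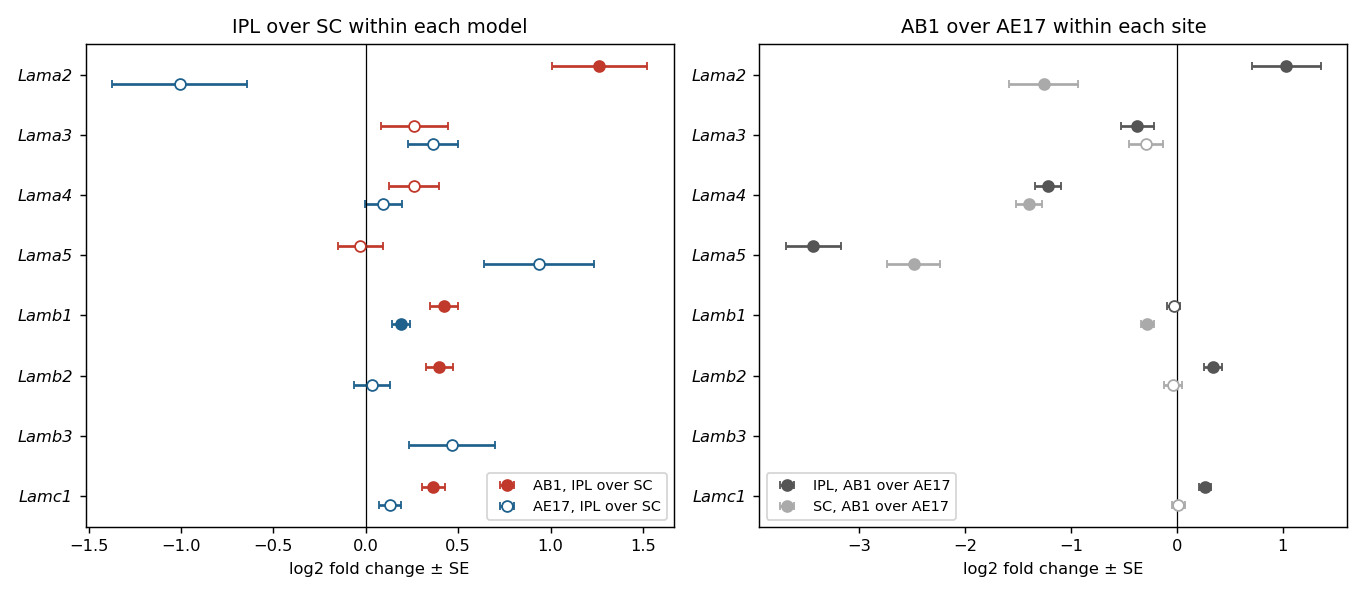
Log2 fold change with its SE for each member, IPL over SC within each model (left) and AB1 over AE17 within each site (right). Lamb3, at few counts in AB1 tumors, is drawn only for AE17. Filled points have an adjusted p under 0.05, and Lama2 lies at 1.26 in AB1 and -1.01 in AE17 tumors for the sites and at 1.03 in IPL and -1.26 in SC tumors for the models.

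Whether the site effect differed between the models was tested directly in a fit of all 32 tumors. Of 8 members, 5 passed, where 20.5% of 15681 genes did. The site effect in AB1 minus that in AE17 was 2.29 ± 0.46 on the log2 scale for Lama2 (adjusted p = 0.00105), -0.95 ± 0.33 for Lama5 (adjusted p = 0.0419), 0.38 ± 0.12 for Lamb2 (adjusted p = 0.0247), 0.25 ± 0.09 for Lamb1 (adjusted p = 0.0369) and 0.25 ± 0.09 for Lamc1 (adjusted p = 0.0341). Among the called members the site effect of Lama5 was the only one with a lower estimate in AB1 than in AE17 tumors. For Lama3 (-0.08 ± 0.22), Lama4 (0.18 ± 0.17) and Lamb3 (0.42 ± 0.57) no difference passed.

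Of these calls, those of Lama2 and Lamb2 held without each single tumor. That of Lama5 was lost in 20 of the 32 fits that left out a tumor, with adjusted p up to 0.0653, and was kept without AB1 IPL tumor 1 or 4, AB1 SC tumor 1, 3 or 7, AE17 IPL tumor 5 or 6, or AE17 SC tumor 1, 2, 3, 4 or 8. That of Lamb1 was lost in 9, without AB1 IPL tumor 1, 6 or 8, AB1 SC tumor 5 or 8, AE17 IPL tumor 5, 6 or 8, or AE17 SC tumor 4. That of Lamc1 was lost in 7, without AB1 IPL tumor 2, AB1 SC tumor 5 or 7, AE17 IPL tumor 5 or 6, or AE17 SC tumor 1 or 6. With lane in the fit 0.746% of all genes passed and none of the members by edgeR, 1 member having an unadjusted p under 0.05. The estimates were then 2.13 for Lama2, -0.83 for Lama5, 0.37 for Lamb2, 0.23 for Lamb1 and 0.16 for Lamc1, with adjusted p from 0.137 to 0.562. With the tissue marker scores, where 5.46% of all genes passed, Lama2 passed at 1.70 (adjusted p = 0.0193). The other 4 did not, at -0.69 for Lama5, 0.27 for Lamb2, 0.28 for Lamb1 and 0.25 for Lamc1, with adjusted p from 0.0779 to 0.287.

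Whether laminin genes differ between the models was compared at each site. In SC tumors 5 of 8 members passed, all lower in AB1, where 58.3% of 15681 genes passed. In IPL tumors 7 of 8 passed, 3 higher and 4 lower in AB1, where 63.4% passed. Shares this high over all genes leave these counts as no result about the laminin genes, and the sizes of the differences are given instead. Lamb3 is among the members counted here but passed the filter on low counts only through the AE17 tumors, so its call is no support for a difference. Without Lamb3, the groups did not overlap for 3 of 7 members in SC tumors (30.8% of all genes) and for 4 of 7 in IPL tumors (28.1% of all genes). Both comparisons share their tumors with the site comparisons.

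Every AB1 tumor, at 28.7 to 61.4 CPM of Lama5, was below every AE17 tumor, at 69.4 to 592 CPM. It was 10.8-fold lower in AB1 than in AE17 IPL tumors (log2 fold change -3.43 ± 0.26, adjusted p = 4.9e-13) and 5.60-fold lower in SC tumors (-2.48 ± 0.25, adjusted p = 3.6e-10). Lama4 lay at 24.5 to 50.8 CPM in AB1 and 57.2 to 99.8 CPM in AE17 tumors, again without overlap. It was 2.32-fold lower in AB1 IPL tumors (-1.21 ± 0.12, adjusted p = 3.03e-10) and 2.63-fold lower in AB1 SC tumors (-1.40 ± 0.12, adjusted p = 1.87e-11). With lane in the fit both genes still passed in both sites, Lama5 at -3.30 (adjusted p = 1.84e-06) in IPL and -2.48 (adjusted p = 0.000102) in SC tumors. No lane held both models at the same site, so this fit links them through tumors of the other site. It assumes that lane acts alike in all groups, and lane and model cannot be fully told apart.

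Lamb3 stood at 1 to 19 counts in AB1 IPL and 0 to 7 counts in AB1 SC tumors, or 0 to 0.942 CPM, and at 14 to 44 counts, or 0.821 to 2.64 CPM, in AE17 tumors. At each site every AB1 tumor was below every AE17 tumor. Many AB1 tumors lay at or under the floor of 3 counts, so no fold or p between the models is given. Lama3, the alpha chain of the same trimer, differed by -0.37 ± 0.16 in IPL (adjusted p = 0.0378) and -0.29 ± 0.16 in SC tumors (adjusted p = 0.12). The IPL call was lost with total counts (adjusted p = 0.0788), with no filter on low counts (adjusted p = 0.101) and without any of 9 tumors, AB1 IPL 1, 4, 5 or 8, AB1 SC 1 or 4, or AE17 IPL 2, 3 or 8.

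Lama2 differed in opposite directions at the 2 sites, at 1.03 ± 0.33 in IPL (adjusted p = 0.00652) and -1.26 ± 0.33 in SC tumors (adjusted p = 0.00148). With the tissue marker scores in the fit the SC difference still passed, at -0.94 (adjusted p = 0.00415), and the IPL call was lost, at 0.76 (adjusted p = 0.0544), as was that of Lama3, at -0.24 (adjusted p = 0.331). Lamb1, Lamb2 and Lamc1, the chains at the highest levels in AB1 tumors, had estimates from -0.28 to 0.34. Lamb2 (0.34 ± 0.09, adjusted p = 0.000898) and Lamc1 (0.27 ± 0.06, adjusted p = 0.000309) were higher in AB1 than in AE17 IPL tumors, with every AB1 tumor above every AE17 tumor, and had estimates of -0.04 and 0.01 in SC tumors (adjusted p = 0.721 and 0.87). Lamb1 was lower in AB1 SC tumors (-0.28 ± 0.06, adjusted p = 2e-04), where the groups met without overlap, and stood at -0.03 ± 0.06 in IPL tumors (adjusted p = 0.681). With lane in the fit the IPL calls of Lama2 (0.81 ± 0.68), Lama3 (-0.37 ± 0.32), Lamb2 (0.28 ± 0.18) and Lamc1 (0.12 ± 0.12) and the SC call of Lama2 (-1.32 ± 0.62) were lost, with adjusted p from 0.105 to 0.481, as was the IPL call of Lamb3. Each of the SEs given was larger than in the fit without lane, and the estimates kept their sign. At either site, lane and model cannot be told apart without the tumors of the other site.

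The spread within a group set some members apart. The SD of log2 CPM of Lama5 in AE17 SC tumors was 0.92, larger than that of 95.9% of 15681 genes there, and its highest tumor exceeded its lowest 6.66-fold. In the other 3 groups its SD was 0.21 to 0.31. Lama2 in AE17 IPL tumors had an SD of 1.19, larger than 97.6% of genes, with AE17 IPL tumor 1 at 0.872 CPM and tumor 8 at 2.67 CPM below all others. Lamb1 and Lamc1 stood at the other end. In AE17 tumors their SDs were 0.08 to 0.12, and those of Lamb1 were larger than only 5.37% (IPL) and 5.22% (SC) of genes.

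The genes whose levels followed Lama5 most closely once the 4 group means were removed were Gm14137 (Pearson r = 0.907), B3gnt3, a glycosyltransferase (r = 0.898), and Rhbdf2, an inactive rhomboid protease (r = 0.895), over 32 tumors that share library depth and cell mixture. These values rested on AE17 tumors, with r = 0.960, 0.958 and 0.937 over 16 tumors, against 0.432, 0.491 and 0.633 in AB1. By rank (Spearman) the values were lower, at 0.595, 0.625 and 0.708 over both models. They were 0.794, 0.891 and 0.782 in AE17 and 0.221, 0.056 and 0.629 in AB1 tumors.

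Lama2 followed Sfrp1, a secreted Wnt inhibitor (r = 0.861, by rank 0.818 in AB1 and 0.591 in AE17 tumors), Clec11a (r = 0.849) and Cpeb1 (r = 0.847). It also followed the mean log2 level of several marker lists, those of pericytes and smooth muscle (r = 0.696), cardiac muscle (r = 0.644), fibroblasts (r = 0.622), skeletal muscle (r = 0.609), mesothelium (r = 0.529) and Schwann cells (r = 0.521). For pericytes and smooth muscle r was 0.582 in AB1 and 0.734 in AE17 tumors, and for skeletal muscle 0.365 and 0.720. By rank (Spearman) these were 0.594 and 0.524, and 0.541 and 0.515, so the higher AE17 values were not kept. AE17 IPL tumors 1 and 8, the lowest in Lama2, had the lowest summed skeletal muscle markers of their group, at 57.4 and 66.2 CPM. AB1 IPL tumor 2, with 121 CPM of these markers and 16.1 CPM of Lama2, and AE17 SC tumor 1, with 62.3 and 17.2 CPM, were low in the markers but not in Lama2. Lama4 followed the endothelial markers (r = 0.709), with r = 0.809 in AB1 and 0.579 in AE17 tumors, and the single genes most like it were Cd1d2 (r = 0.756), Cd1d1 (r = 0.747) and Chp1 (r = 0.739).

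**Figure D4:**
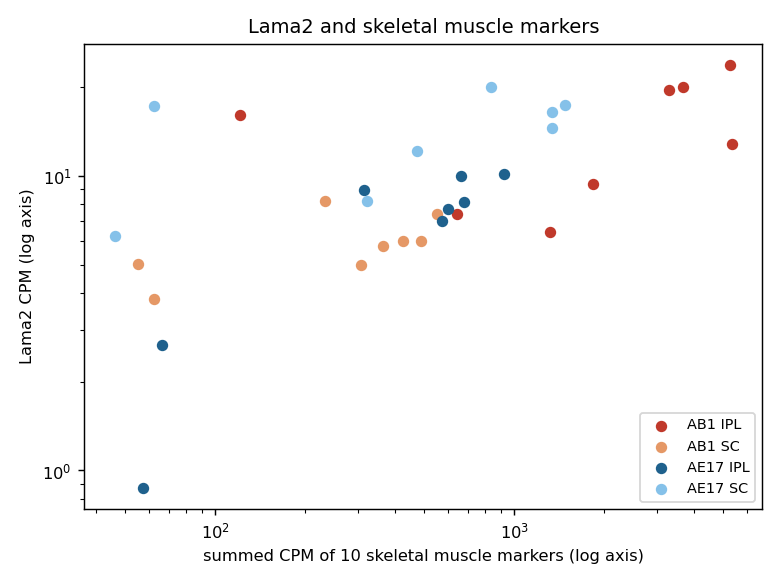
Lama2 CPM against the summed CPM of 10 skeletal muscle markers, with each point a tumor, colors for the 4 groups and both axes logarithmic. The summed markers run from 121 to 5334 CPM in AB1 IPL and from 55.1 to 551 CPM in AB1 SC tumors, while Lama2 runs from 6.45 to 23.7 CPM and from 3.81 to 8.18 CPM.

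Lamb1 was most like Col18a1, the collagen of the vascular and epithelial basement membrane (r = 0.797), Snhg8 (r = 0.738) and 5330416C01Rik (r = 0.728). Of the marker lists, Lamb1 ran against those of leukocytes (r = -0.644), Schwann cells (r = -0.510) and fibroblasts (r = -0.421). The leukocyte markers summed to medians of 741 CPM in AB1 IPL and 987 CPM in AB1 SC tumors, opposite to Lamb1, and no leukocyte score was among the marker scores fitted, so their part in the Lamb1 difference was not tested. Lamb2 was most like Slc44a2 (r = 0.775), Wisp2 (r = 0.747) and Igfbp5 (r = 0.745), and of the marker lists the fibroblast one (r = 0.554). Lamc1 was most like Capn2 (r = 0.760), Ehd2 (r = 0.749) and Sept8 (r = 0.738), and Lama3 like Ankrd29 (r = 0.753), Jak1 (r = 0.745) and Rnf141 (r = 0.727). Lamb3, at few counts in AB1 tumors, was left out of these correlations. Among the members themselves the tie was weak. Over the 21 pairs of the other 7 members r ran from -0.359 (Lama2 with Lamb1) to 0.480 (Lama2 with Lamb2), with a median of 0.114, and stood at 0.312 for Lamb1 with Lamc1, which share most trimers.

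Most of the other basement membrane genes tested were also higher in AB1 IPL than SC tumors. Of 14 partners of laminin with a row 11 were tested, and 9 were higher and none was lower, with a median log2 fold change of 0.60, where 23% of all genes passed. Col18a1 (0.36 ± 0.17, adjusted p = 0.132) and Col4a4 (-0.60 ± 0.25, adjusted p = 0.0998) did not pass. The largest were Col4a5, a type IV collagen chain (1.46 ± 0.26, adjusted p = 0.000797), Col15a1 (0.72 ± 0.21, adjusted p = 0.0216), Hspg2, the heparan sulfate proteoglycan perlecan (0.66 ± 0.10, adjusted p = 0.000238), and Sparc, a collagen-binding matrix protein (0.64 ± 0.14, adjusted p = 0.00307). Hspg2 stood at 734 to 1289 CPM in IPL and 553 to 740 CPM in SC tumors. In AE17 tumors 2 of 11 were higher, Tinagl1, a laminin-binding matrix protein (1.07 ± 0.26, adjusted p = 0.0271), and Agrn, the proteoglycan agrin that binds laminin and dystroglycan (0.43 ± 0.11, adjusted p = 0.0343), where 5.73% of all genes passed. Between the models 10 of 12 partners passed in each site, where 58.3% (SC) and 63.4% (IPL) of all genes did. Among the 12 is Col4a6, at means of 0.0402 and 0.0284 CPM in AB1 IPL and SC tumors and 1.70 and 1.62 CPM in AE17 IPL and SC tumors. It passed the filter on low counts only through the AE17 tumors, so a call of it is no support for a difference. Fras1, which anchors epithelial basement membranes, was higher in AB1 tumors by 5.77 ± 0.18 in IPL and 5.68 ± 0.19 in SC on the log2 scale (adjusted p = 2.1e-22 and 5.9e-22), and Tinagl1 was lower by 3.35 and 2.89 (adjusted p = 4.46e-13 and 1.41e-11). These tumors carried 50.3 to 67.0 CPM of Fras1 in AB1 IPL and 0.523 to 1.42 CPM in AE17 IPL.

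A list of laminin receptors also held the proteins that accompany them in the membrane. Of its 12 genes tested, 7 were higher in AB1 IPL than in SC tumors and none was lower, where 23% of all genes passed. Of the 7, 4 were sarcoglycans (Sgca, Sgcb, Sgcd and Sgce), which accompany dystroglycan and are not known to bind laminin themselves, and the others were Bcam, Itgb4 and Dag1, dystroglycan itself. The largest were Sgca (3.35 ± 0.61, adjusted p = 0.000865), Bcam, the Lutheran glycoprotein that binds the Lama5 chain (2.28 ± 0.39, adjusted p = 0.000534), Itgb4, the hemidesmosome integrin subunit (1.09 ± 0.20, adjusted p = 0.000936), and Sgce (0.78 ± 0.25, adjusted p = 0.0315). In AE17 tumors Itgb4 was lower in IPL (-1.72 ± 0.41, adjusted p = 0.0261) and Itga3, the integrin subunit that binds Lama3 and Lama5 chains, was higher (0.86 ± 0.24, adjusted p = 0.0452), and the other 10 did not pass. Itgb4 stood at 1.11 to 5.89 CPM in AE17 IPL tumors and 3.88 to 22.6 CPM in AE17 SC tumors, with SC tumors 5 and 6 highest, at 22.6 and 20.5 CPM, and the others at up to 9.32 CPM. The same 2 tumors held the most keratinocyte markers, at a summed 20.3 and 28.2 CPM against at most 5.42 CPM in the other AE17 tumors, and no keratinocyte score was fitted, so the part of these markers was not tested. The Itgb4 call was lost without AE17 SC tumor 5 (-1.44, adjusted p = 0.0563), AE17 IPL tumor 4 (-1.73, adjusted p = 0.0524) or AE17 IPL tumor 7 (-1.72, adjusted p = 0.0522). The difference of the site effects was 2.83 ± 0.46 for Itgb4 (adjusted p = 0.000131). Between the models in IPL tumors 7 genes of this list were higher in AB1 and 2, Itga3 and Itga6, were lower, and in SC tumors 2 were higher and 2 lower. These are 9 and 4 of 12, where 63.4% of all genes passed in IPL and 58.3% in SC tumors. Itga3 was lower in AB1 by 1.39 in IPL and 0.97 in SC tumors on the log2 scale (adjusted p = 8.13e-07 and 0.000168).

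Of 8 enzymes tested that put the laminin-binding sugar on dystroglycan, 3 were higher in AB1 IPL tumors, where 23% of all genes passed, so that the count is no result about them. The 3 were Pomgnt2 (0.33 ± 0.11, adjusted p = 0.0294), Pomt1 (0.21 ± 0.07, adjusted p = 0.0427) and Pomgnt1 (0.19 ± 0.06, adjusted p = 0.038). In AE17 tumors 0 of 8 passed by edgeR, 1 had an unadjusted p under 0.05 and 0 passed by DESeq2. Among the netrins, which share domains with laminin chains, Ntn4 was higher (0.48 ± 0.12, adjusted p = 0.00683) and Ntng2 lower (-0.94 ± 0.24, adjusted p = 0.00789) in AB1 IPL tumors, while 0 of 3 tested passed in AE17 tumors by edgeR, where all 3 had an unadjusted p under 0.05 and 1 passed by DESeq2. Ntn1 was lower in AB1 than in AE17 tumors by 2.74 in IPL and 3.36 in SC on the log2 scale (adjusted p = 5.1e-17 and 7.44e-19). Lamc3, a gamma chain outside the members, was higher in AE17 IPL than SC tumors (1.08 ± 0.23, adjusted p = 0.0159), at 2.40 to 4.06 against 0.762 to 2.77 CPM. Its call was lost with lane (1.21, adjusted p = 0.144), within a single lane (1.21, adjusted p = 0.215), with the tissue marker scores (0.96, adjusted p = 0.212) and in the fit of all 32 tumors (1.08, adjusted p = 0.0972).

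Most site calls of these lists were lost with lane or the tissue marker scores in the fit. In AB1 tumors 1 of 11 partners, 0 of 12 genes of the receptor list, 0 of 8 enzymes and 0 of 4 netrins passed with lane by edgeR, where 2.64% of all genes did, with 6, 4, 0 and 2 at an unadjusted p under 0.05. With the tissue marker scores 2, 0, 0 and 1 passed in the same order, where 5.38% of all genes did, with 8, 2, 0 and 1 at an unadjusted p under 0.05. Lane left Col4a5 at 1.44 and Sgca at 2.89, and the tissue marker scores left them at 0.59 and 0.61 (edgeR, adjusted p from 0.118 to 0.377). In AE17 tumors only 1 of 14668 genes passed with lane and 2 with the tissue marker scores, so the loss of calls there says nothing about these lists. The AE17 estimates were 1.10 with lane and 0.99 with the scores for Tinagl1, 0.44 and 0.39 for Agrn, -1.80 and -1.40 for Itgb4 and 0.88 and 0.73 for Itga3. The Itgb4 difference of site effects was 2.80 with lane (adjusted p = 0.0692) and 1.90 with the tissue marker scores (adjusted p = 0.0113). Between the models Fras1, Tinagl1 and Ntn1 passed at both sites in both fits, and the SC difference of Itga3 did not pass with lane (-0.94, adjusted p = 0.0627). No lane held both models at the same site, so the lane fit cannot fully tell lane from model.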

How the data were processed

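Tumor RNA from 32 mice was analysed from 1 deposited table. Per the labels and the study's methods, the authors converted raw reads with bcl2fastq (1.8.4), aligned them with HISAT2 (2.0.4) to the mouse genome and counted reads per gene with summarizeOverlaps; the strand setting is not given in the sources used here. The deposited counts are whole numbers and are not normalized. Gene identifiers were matched to GENCODE M21 (39495 of 39676), from which coordinates, exon lengths and coding lengths were taken; the annotation used for counting is not given in the sources used here.

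Counts were tested with edgeR (4.0.16) by the robust quasi-likelihood F test after TMM scaling and filterByExpr, with Benjamini-Hochberg adjustment over all genes tested and a threshold of 0.05. IPL was compared with SC in a fit of the 16 tumors of each model. The interaction, and AB1 against AE17 at each site, came from 1 fit of all 32. Errors are SE, computed as the size of the log2 fold change over the square root of F. Where no tool is named beside an adjusted p, it is edgeR's. Log2 CPM for correlations used a prior count of 2, and the 4 group means were removed. No correlation carries a p. CPM per kb divides by the union of annotated exons.

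The members and gene lists were chosen with earlier results of these data known, so no list is independent evidence. Some genes of these lists are not reported here and are left out of the list counts. Text names all members, at most 4 called genes per list and comparison with the largest change, at most 3 genes per marker list, and the 3 genes most like each member but Lamb3. Alternatives were DESeq2 (1.42.0), other scalings and filters, lane, replicate number or tissue marker scores in the fit, a single lane, and each tumor left out. The code was tested on simulated data. No 2 libraries of a group agreed within sampling noise, since over 112 pairs chi-square per degree of freedom was at least 5.51. The floor of 3 counts covers counting error only. The p-values measure the spread between mice of 1 cell line each.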

Additional observations from a re-analysis of the deposited data

Results flagged for a closer look

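Of 32 member and group combinations, 2 had a tumor far from the other 7, judged by the gap to its nearest neighbor over the whole range of the group, and chance gives about 1 in 20. Lamc1 stood at 712 CPM in AB1 IPL tumor 2, with the next tumor at 605 CPM. The same tumor had the highest summed mesothelial markers of its group, at 301 CPM against at most 123 CPM in the others, the highest summed fibroblast markers, at 30480 CPM, and the lowest skeletal muscle markers, at 121 CPM. Without it all 4 AB1 members called between the sites still passed. Lama3 stood at 3.06 CPM in AB1 SC tumor 8, with the next at 2.12 CPM.

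The site effect differed between the models for 5 of 8 members, tested as an interaction with edgeR, where 20.5% of 15681 genes passed. The site effect in AB1 minus that in AE17, on the log2 scale, was 2.29 for Lama2 (adjusted p = 0.00105), -0.95 for Lama5 (adjusted p = 0.0419), 0.38 for Lamb2 (adjusted p = 0.0247), 0.25 for Lamb1 (adjusted p = 0.0369) and 0.25 for Lamc1 (adjusted p = 0.0341). None of the 5 passed with lane in the fit by edgeR (0.746% of all genes), where 1 member had an unadjusted p under 0.05. With the tissue marker scores 1 passed (5.46% of all genes), and with no filter on low counts 2 passed (9.01%). Lama5 was lost in 20 of the 32 fits that left out a tumor. Within the single lanes that hold both sites, the AB1 and AE17 site effects were 1.05 and -1.01 for Lama2 and 0.02 and 0.91 for Lama5.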

How the results depend on the processing

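Lane overlaps with site, and no lane held both models at the same site. With lane in the fit the members called fell to 0 in AB1 (from 4), 0 in AE17 (from 1), 0 for the interaction (from 5) and 2 for AB1 against AE17 in IPL tumors (from 7). Over all genes 2.64%, 0.00682%, 0.746% and 31.9% passed with lane, against 23%, 5.73%, 20.5% and 63.4% without it. Within a single lane 0 were called in either model, with fewer tumors, where 1.06% of all genes passed in AB1 and 0.0911% in AE17. With the tissue marker scores the counts were 2 in AB1, 0 in AE17, 1 for the interaction and, between the models, 5 in SC (as without them) and 5 in IPL (from 7), where 5.38%, 0.0136%, 5.46%, 58.1% and 52.5% of all genes passed. In AE17, DESeq2 and the fit of all 32 mice each called 3 (6.21% and 8.44% of all genes). No filter (1.93% of all genes) and a threshold of 0.01 each left 0. For the interaction no filter left 2 (9.01% of all genes) and the threshold of 0.01 left 1. Fits of the other gene lists with lane or the scores were chosen after seeing the data. Causes were not tested.

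With the replicate number as a block, AE17 went to 0 members called and 661 genes in all (from 840), and AB1 to 2263 genes (from 3374). Lamb1 lost its call with the block both in AE17 (adjusted p = 0.0613) and in the interaction (adjusted p = 0.0553), and no other member call changed with it. Numbers come from different mice and do not pair them: same-numbered tumors had correlations of -0.317 to 0.01 in AB1 and -0.259 to 0.288 in AE17, 0 and 5 of 8 pairs were over 0.1, and 0 and 2 of 8 correlated best with their own number.

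Some estimates near 0 changed sign. Lama5 in AB1 was 0.075 with lane and 0.025 within lane 3. Lama4 in AE17 was -0.069 with lane, -0.069 within lane 1 and -0.031 with the tissue scores. The Lama3 interaction was 0.015 with lane and 0.055 with the tissue scores. Between the models, Lamb2 in SC was 0.019 and Lamb1 in IPL 0.029 with total counts, Lamb1 in IPL 0.003 with no filter, and Lamc1 in SC -0.043 with lane.

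Leaving out a tumor kept 4 calls in AB1 throughout and gave 0 to 3 in AE17, 2 to 5 for the interaction, 5 to 6 for the models in SC and 6 to 7 in IPL. Signs changed over ranges of -0.14 to 0.040 for Lama5 in AB1, -0.016 to 0.11 for Lamb2 in AE17, -0.15 to 0.045 for the Lama3 and -0.099 to 0.77 for the Lamb3 interaction, -0.072 to 0.035 for Lamb2 and -0.0099 to 0.048 for Lamc1 between the models in SC, and -0.066 to 0.013 for Lamb1 between the models in IPL.

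Calls over all genes were 4497 in AB1 and 1768 in AE17 by DESeq2, 386, 1 and 117 for AB1, AE17 and the interaction with lane, 788, 2 and 856 with the tissue scores, 169 and 14 within a lane, 550 in AE17 with no filter, and 1324 in AE17 with all 32 mice. With lane, 5268 and 5008 genes were called between the models in SC and IPL. Total counts raised the share of genes higher in AB1 SC tumors to 5105 of 9300, against 4478 of 9138.

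With coding length, a choice made after seeing the data since the planned protein length could not be run, shares (AB1 IPL then SC, AE17 IPL then SC) were 51.9%, 52.0%, 25.6% and 39.9% for Lama4, 33.2%, 39.6%, 72.6% and 55.0% for Lama5, and 75.7%, 75.6%, 79.9% and 78.3% for Lamb1. With no length correction Lamb1 held 76.1%, 75.9%, 80.4% and 78.7%, and Lama2 7.43% in AB1 SC. Depth limits Lamb3 in AB1, at 0 to 19 counts.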

Other observations

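Other markers of the tissue mixture were counted beside the laminin genes. Over all genes 23% passed between the sites in AB1, 5.73% in AE17 and 58.3% between the models in SC tumors, and counts near these shares are no result about a list. Of 9 endothelial markers, 4 were higher in AB1 IPL than SC tumors and 1 in AE17 IPL tumors, and 7 were lower in AB1 than in AE17 SC tumors. Of 6 pericyte and smooth muscle markers, 3 were higher in AB1 IPL tumors, with Des at a log2 fold change of 3.29, and 1, Cspg4, was lower in AE17 IPL tumors by 2.23. Of 7 leukocyte markers, 4 were lower and 1 higher in AB1 IPL tumors, with summed levels of 628 to 896 CPM in IPL and 781 to 1172 CPM in SC tumors, and 1 was lower in AE17 IPL tumors. Of the adipocyte markers, 3 of 5 were higher in AB1 IPL tumors and 0 of 6 passed in AE17 by edgeR, where 2 had an unadjusted p under 0.05 and 0 passed by DESeq2. AE17 IPL tumor 5 stood apart in its group, with summed adipocyte markers at 1113 CPM against at most 89.0 CPM in the others. Its cardiac markers summed to 246 CPM against at most 59.4 CPM. The same tumor had the lowest Lama5 (288 CPM) and the highest Lama4 (99.8 CPM) and Lama2 (10.2 CPM) of its group. Of 4 cardiac muscle markers, 3 were higher and 1 lower in AB1 IPL tumors and 2 were higher in AE17 IPL tumors. Of 6 Schwann cell markers in AB1, 1 was higher and 1 lower, and of 2 keratinocyte markers 1 was higher, too few to set apart from the share over all genes. In AE17 SC tumors 5 and 6 the keratinocyte markers summed to 20.3 and 28.2 CPM, with Krt5 at up to 14.2 CPM, against 3.23 to 5.13 CPM in the other 6. The lung epithelium markers summed to at most 11.8 CPM in any tumor, with Ager at up to 7.28 CPM and Sftpb at up to 1.10 CPM. The part of any of these in the laminin values was not tested beyond the fits with marker scores.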
